A study of Mus musculus with 2 samples.

Results

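The 8 genes described here encode lysosomal proteases and were followed across the immune cells of B16-OVA melanomas from control and creatine-treated mice. They are 7 cathepsins (*Ctsb*, *Ctsc*, *Ctsd*, *Ctsh*, *Ctsl*, *Ctsw* and *Ctsz*) and legumain (*Lgmn*), out of 31053 genes counted in both libraries. They were taken by name and not by a measured value, though with earlier results of these data known. They are not the whole family, and other cathepsins, among them *Ctss*, are read apart further below. Cells were assigned to 16 types by marker genes, none of which is one of the 8. The type names are therefore rebuilt from markers and can differ from those of the study.

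Cathepsins are made as inactive precursors and mature in the acid lumen of endosomes and lysosomes. Most are cysteine proteases, cathepsin D is an aspartic protease, and legumain cuts after asparagine and helps to mature several cathepsins. In macrophages and dendritic cells (DCs) they digest engulfed protein and the invariant chain that guards MHC class II, and in cytotoxic lymphocytes cathepsin C activates granzymes.

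The mice were C57BL/6J (B6) animals aged 8 to 12 weeks that carried a subcutaneous graft of B16-OVA, a melanoma line that expresses ovalbumin, and the question was what creatine does to tumor-infiltrating immune cells (TIIs). The control group is labelled PBS, and the other group received 10.5 mg of creatine per day by intraperitoneal injection. Live CD45.2+ cells were sorted from pooled tumors, and 10000 cells per group were loaded on a droplet platform that tags each mRNA molecule near its 3′ end with a unique molecular identifier (UMI). The sources differ on the harvest (day 14 or day 10) and on the number of tumors or mice (4 or 5), and both libraries carry the same creatine entry in their protocol. The place of the control library, and so every direction given here, rests on its title and treatment label.

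After the filter on mitochondrial (mt-) UMIs the control library held 7241 cells with a median of 7688 UMIs, and the creatine library 6229 cells with a median of 8475. There were 30 cell barcodes found in both libraries. The gates placed 71.2% and 75.6% of the cells in 1 type each. The macrophage gate held 606 and 235 cells in control and creatine, and the intermediate gate, with markers of monocytes and macrophages, held 415 and 206. There were 190 and 373 classical monocytes, 65 and 145 nonclassical monocytes, 54 and 18 cDC1, 79 and 47 cDC2, 40 and 12 *Ccr7*+ DCs and 37 and 23 plasmacytoid DCs (pDCs). The lymphocyte gates included 2394 and 1970 CD8 T cells, 320 and 199 regulatory T cells (Tregs) and 644 and 1112 NK cells. *C1qa* stood at 3901 and 4505 counts per 1000000 UMIs (CPM) in the macrophage gate and at 22.2 and 11.1 CPM in CD8 T cells. It is 1 of the 8 markers that the macrophage gate counts and the CD8 T cell gate limits, so the gates set part of this contrast. *Ptprc*, which encodes CD45, was lowest in the melanoma gate, at 19.8 and 9.64 CPM.

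With 1 library per group there is no replicate, so no test was made. Intervals of CPM and of CPM ratios are 95% counting intervals, which leave out the spread between cells, mice, tumors and library preparations. Intervals said to overlap or to lie apart are read with that limit. The share of all genes whose intervals lay apart between the libraries was not counted. Those of shares of cells leave out the spread between mice, tumors and library preparations. A gene is called past the fold when its CPM ratio between libraries reached 1.5 in either direction. The share of all genes with at least 100 UMIs over both libraries in that gate that did so is given as the background. That limit was not set for the 8 genes, so a called gene with fewer UMIs lies outside the background. In *Ccr7*+ DCs, pDCs, γδ T cells, B cells and the melanoma gate 0 called genes reached 100 UMIs. In the intermediate, cDC2, CD4 T cell and neutrophil gates 1 did in each. Paired values are given as control and then creatine.

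The promoter table of RefSeq (GRCm38.p6, 250 bases before to 50 after a start site) held 6 windows for 5 of the 8 genes. They were searched for CACGTG, the core letters of the element through which TFEB and TFE3 are known to drive lysosomal genes. The letters read the same on both strands. They were found in 3 of these 6 windows, in 23.7% of 76 windows of other lysosomal genes and in 7.15% of all 32851 windows. The 4 matches are shown, with the core in capitals, because *Ctsd*, *Lgmn* and *Ctsl* had them in common. All lie on the minus strand and are written 5′ to 3′ on it. The coordinates are those of the whole stretch shown, and the distance is that of the first base of the core.
Ctsd, chr7:142388055-142388077, from 245 bases before the start site: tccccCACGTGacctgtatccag
Ctsd, chr7:142387908-142387937, from 98 bases before the start site: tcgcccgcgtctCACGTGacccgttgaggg
Lgmn, chr12:102439124-102439153, from 49 bases before the start site: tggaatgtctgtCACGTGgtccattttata
Ctsl, chr13:64370739-64370768, from 236 bases before the start site: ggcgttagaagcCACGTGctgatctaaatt
A match is a description of letters and not a bound site. The windows of *Ctsc* and *Ctsz* and the other window of *Lgmn* did not hold them. *Tfeb* itself was at 32.3 CPM (29.04 to 35.8) in control and 36.8 CPM (32.1 to 41.99) in creatine macrophages, and the intervals overlapped.

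The genes lie apart in the genome (GRCm38). *Ctsc* (88278085 to 88310888, plus strand) and *Ctsd* (142375911 to 142388038, minus strand) are both on chromosome 7. *Ctsb* is on chromosome 14 (63122462 to 63145923), *Ctsh* on chromosome 9 (90054152 to 90076089), *Ctsl* on chromosome 13 (64359337 to 64370890), *Ctsw* on chromosome 19 (5465043 to 5468507), *Ctsz* on chromosome 2 (174427493 to 174439039) and *Lgmn* on chromosome 12 (102394084 to 102439813). *Ctsd* and *Ctsl* each overlap another gene model on the same strand, which can divert reads, so their values are less certain. Of the 3′ windows of 50 bases, 1.92% of those of *Ctsc* recur in other genes and none of those of the other 7 do.

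Macrophages held the highest level of *Ctsb*, *Ctsc*, *Ctsd*, *Ctsz* and *Lgmn* in both libraries. The highest level of *Ctsl* and *Ctsh* was in pDCs, and that of *Ctsw* in NK cells. Macrophages were 8.37 and 3.77 percent of the cells, and they held 54.4% and 49.5% of all *Ctsb* UMIs and 57.1% and 56.9% of all *Lgmn* UMIs. Together the 8 genes made up 1.41% and 1.69% of the UMIs of macrophages, 0.914% and 0.902% of those of intermediates, 0.401% and 0.350% of those of classical monocytes and 0.109% and 0.114% of those of CD8 T cells.

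**Figure D1:**
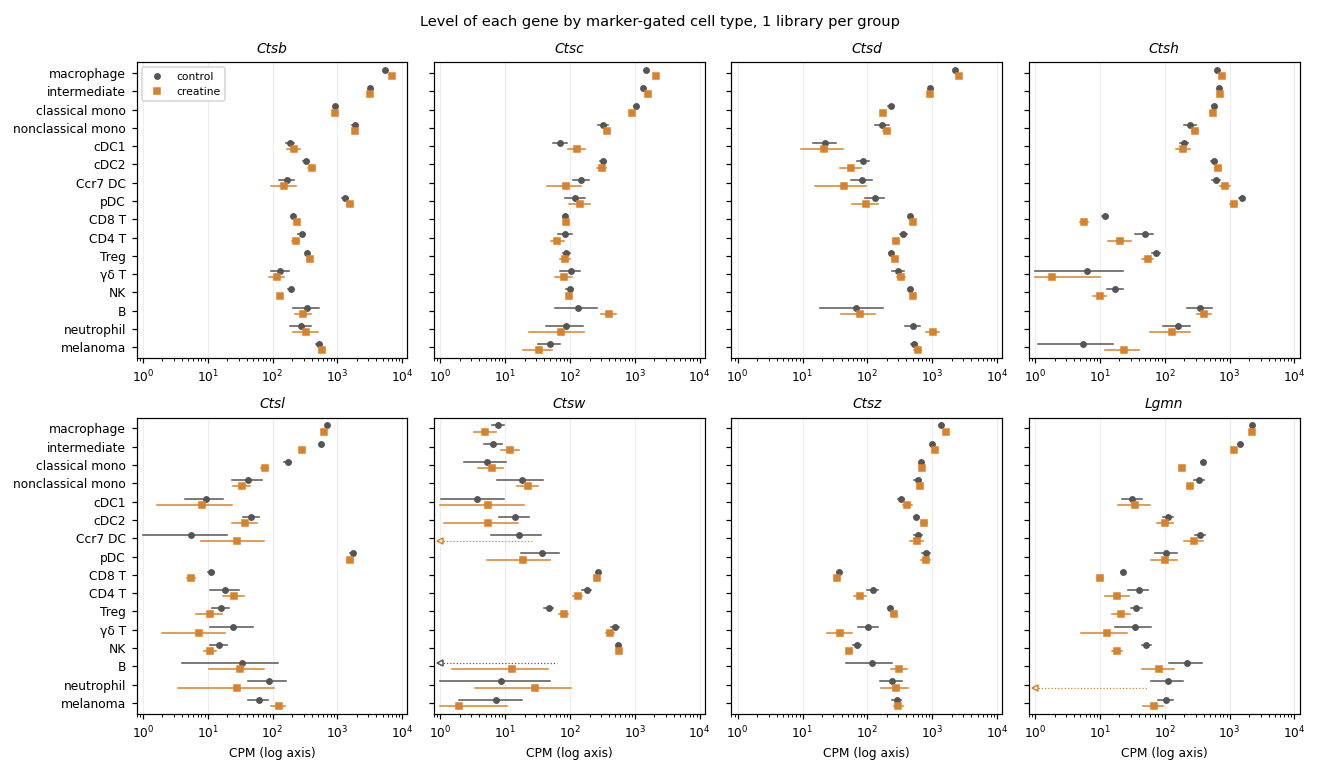
CPM of each of the 8 genes (log axis) in 16 marker-gated types, with control as grey circles and creatine as orange squares, 95% Poisson bars, and an open triangle with a dotted bar for a sum of 0 UMIs and its upper limit. Unlike the other genes, *Ctsw* is higher in NK cells than in macrophages, at 558 and 573 CPM against 7.71 and 4.97 CPM.

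*Ctsb*, which encodes an endopeptidase that also trims dipeptides, was at 5417 CPM (5374 to 5459.6) in control and 6915 CPM (6849 to 6982) in creatine macrophages. It stood at 3171 and 3231 CPM in intermediates, 1833 and 1872 CPM in nonclassical monocytes, 1296 and 1580.1 CPM in pDCs and 932 and 915 CPM in classical monocytes. These 5 types kept that order in both libraries, and no neighbours among them had overlapping intervals. The ratio of nonclassical to classical monocytes was 1.97 (1.79 to 2.16) in control and 2.05 (1.94 to 2.16) in creatine.

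*Ctsd*, the aspartic protease, had another order. Macrophages held 2244 and 2624 CPM and intermediates 935 and 917 CPM, and CD8 T cells (448 and 498 CPM) and NK cells (448 and 513 CPM) stood above classical monocytes (234 and 175 CPM) and every DC type. The small neutrophil and melanoma gates were also high, at 507 and 1018 and 525 and 598 CPM. The ratio of CD8 T cells to classical monocytes was 1.92 (1.73 to 2.14) in control and 2.84 (2.62 to 3.08) in creatine. The lowest level was in cDC1, at 22.3 CPM (14.3 to 33.2) in control and 21.6 CPM (9.32 to 42.5) in creatine. The ratio of CD8 T cells to cDC1 was 20.1 (13.5 to 31.4) in control and 23.1 (11.7 to 53.4) in creatine.

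*Lgmn* was at 2193 and 2214 CPM in macrophages and 1452 and 1179 CPM in intermediates. In control the next were classical monocytes, *Ccr7*+ DCs and nonclassical monocytes, at 390.4, 348 and 341 CPM with overlapping intervals. *Ccr7*+ DCs, the mature migratory state, held 348 CPM (290.04 to 415) in control and 279.9 CPM (199 to 383) in creatine, above cDC2 at 112 and 101.7 CPM and cDC1 at 31.6 and 35.1 CPM in each library, with intervals apart.

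*Ctsc*, the dipeptidyl peptidase that activates granzymes, was highest in macrophages (1509 and 2104 CPM), intermediates (1344 and 1569 CPM) and classical monocytes (1027 and 896 CPM). The ratio of nonclassical to classical monocytes was 0.320 (0.264 to 0.384) in control and 0.422 (0.383 to 0.463) in creatine, the reverse of *Ctsb*. In the lymphocytes whose granzymes it activates it was lower, at 83.6 and 88.1 CPM in CD8 T cells and 98.7 and 96.5 CPM in NK cells.

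*Ctsz*, a carboxypeptidase also called cathepsin X, ran from 1369 and 1604 CPM in macrophages through 807 and 790.1 CPM in pDCs and 570.4 and 750.03 CPM in cDC2 to 335 and 415 CPM in cDC1. Among T cells it was highest in Tregs, at 226 CPM (209 to 243) in control and 255 CPM (232 to 279) in creatine. CD8 T cells held 36.3 and 33.5 CPM, and the ratio of Tregs to them was 6.21 (5.64 to 6.83) in control and 7.62 (6.80 to 8.51) in creatine. *Ctsh*, an aminopeptidase, was also higher in Tregs, at 73.7 and 54.9 CPM against 11.99 and 5.74 CPM in CD8 T cells. Few cells carried it: 85.3% and 90.5% of Tregs had no *Ctsh* UMI, and 91.0% and 93.7% of CD8 T cells. In Tregs the log2 ratio of *Ctsh*, creatine over control, was -0.42 and ranged from -2.13 to -0.27 over alternative settings.

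pDCs, which sense nucleic acids in their endosomes, stood apart for *Ctsl* and *Ctsh*. *Ctsl*, an endopeptidase, was at 1719 CPM (1568 to 1882) in control and 1542 CPM (1379 to 1719) in creatine pDCs. The ratio of pDCs to macrophages was 2.52 (2.29 to 2.76) in control and 2.46 (2.19 to 2.75) in creatine, and that of pDCs to cDC2 was 36.4 (27.2 to 49.8) in control and 40.4 (26.01 to 66.2) in creatine. *Ctsh* in pDCs was at 1529.6 and 1164 CPM, and its ratio to macrophages was 2.36 (2.13 to 2.60) in control and 1.54 (1.35 to 1.75) in creatine.

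*Ctsw*, a papain-like cathepsin known from cytotoxic lymphocytes, was led by lymphocytes. It stood at 558 and 573 CPM in NK cells, 495 and 416 CPM in γδ T cells, 272 and 264 CPM in CD8 T cells, 183 and 132 CPM in CD4 T cells and 46.96 and 80.4 CPM in Tregs. Among neighbours in this order only NK and γδ T cells of the control library had overlapping intervals. The ratio of NK to CD8 T cells was 2.05 (1.95 to 2.16) in control and 2.17 (2.09 to 2.25) in creatine. Outside lymphocytes the highest values were 36.5 CPM in control pDCs and 28.7 CPM in creatine neutrophils, from 10 and 2 UMIs.

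Within CD8 T cells *Ctsw* was higher in cells with UMIs of fewer than 2 of 8 proliferation genes. These non-dividing cells held 391 and 357 CPM and dividing cells 233 and 229.7 CPM, and the ratio of the first to the second was 1.68 (1.61 to 1.76) and 1.56 (1.49 to 1.63). For *Ctsd* the same ratio was 1.18 and 1.12. In macrophages *Ctsc* ran the other way, with dividing cells at 1615 and 2340.3 CPM and non-dividing cells at 1285 and 1599 CPM. Dividing cells were 52.97 and 51.5 percent of macrophages and 55.8 and 52.8 percent of CD8 T cells. The split was not matched for depth: non-dividing CD8 T cells held a mean of 7614 and 9135 UMIs per cell in control and creatine, and dividing CD8 T cells 18557 and 21824. In macrophages the means were 12780.4 and 16881 in non-dividing and 23789 and 33932 in dividing cells. The part of depth in these ratios was not tested.

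The share of cells with at least 1 UMI was compared after each cell was thinned to 2000 UMIs, which left out 11 and 5 shallower macrophages and 30 and 10 CD8 T cells. *Lgmn* was then found in 94.6% (92.5 to 96.3) and 95.7% (92.1 to 97.9) of macrophages and in 4.44% (3.65 to 5.35) and 2.09% (1.51 to 2.83) of CD8 T cells (exact Clopper-Pearson intervals). CD8 T cells are set beside macrophages here as a type not known for *Lgmn*. *Ctsd* was found in 58.6% and 58.6% of CD8 T cells and 59.2% and 63.3% of NK cells, well above that level. *Ctsw* was found in 46.4% and 43.9% of CD8 T cells, 65.3% and 64.5% of NK cells and 1.34% (0.582 to 2.63) and 2.61% (0.963 to 5.59) of macrophages. Without thinning, *Lgmn* was found in 99.8% and 99.1% of macrophages and 24.2% and 13.4% of CD8 T cells, at median depths of 16734 and 24506 and 10412 and 12589 UMIs per cell. For 7 of the 8 genes, all but *Ctsw*, the interval in macrophages lay above that in CD8 T cells in both libraries.

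**Figure D2:**
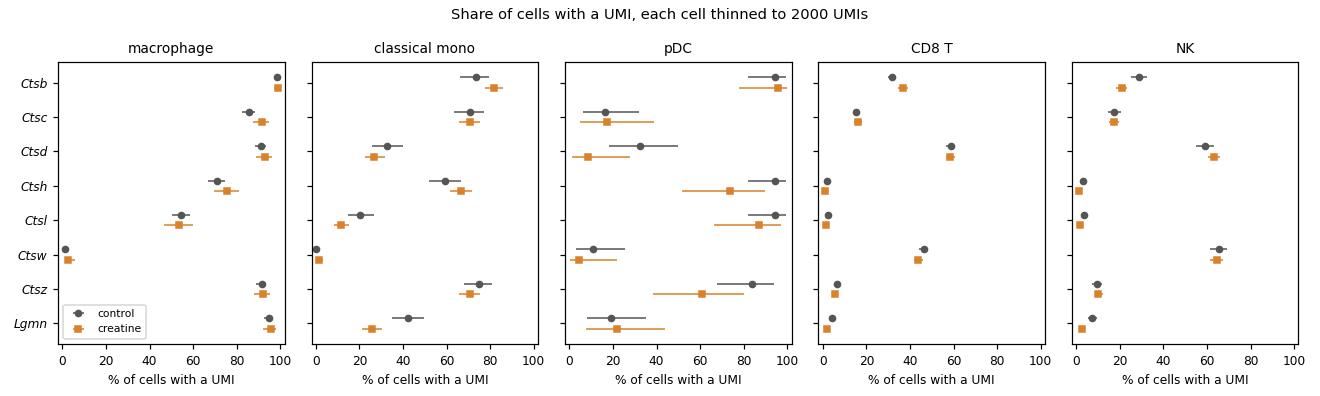
Percentage of cells with at least 1 UMI of each gene after every cell was thinned to 2000 UMIs, in 5 gated types, for control (grey circles) and creatine (orange squares), with exact 95% binomial bars over cells. *Ctsl* in macrophages, at 54.5% and 53.5%, lies below its share in pDCs, 94.6% and 86.96%.

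Over all kept cells *Lgmn* was at 546 and 325 CPM, a log2 ratio of -0.75, and *Ctsl* at 192 and 96.6 CPM, a log2 ratio of -0.99. *Ctsb* was at 1416 and 1168 CPM and *Ctsw* at 175 and 219 CPM. In such a sum fewer cells of a type and less RNA per cell cannot be told apart, and the macrophage share of the cells differed as given above. The libraries were therefore compared within each gate.

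In macrophages 1 of the 8 genes was past the fold, where 5.42% of 8879 genes were past the fold, 1.87% higher and 3.55% lower in creatine. That gene was *Ctsw*, at 7.71 and 4.97 CPM from 87 and 30 UMIs, a log2 ratio of -0.63 (-1.28 to -0.02). In non-dividing macrophages its log2 ratio was -0.03. The cytotoxic lymphocyte genes *Gzma*, *Gzmb* and *Prf1* were also lower in the creatine gate, at 32.9 and 12.8, 19.9 and 10.6, and 10.5 and 5.80 CPM. The 5 NK cell markers, none at 0, summed to 18.5 and 8.29 CPM. The part of lymphocyte RNA in the *Ctsw* value was not tested.

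The median log2 ratio over the 8 genes in macrophages was 0.22, against -0.04 over all genes of the background, and 6 of the 8 lay above 0. The share of all genes above 0 was not counted, so that count has no background. *Ctsc* had the largest ratio, 0.48 (0.45 to 0.51) on the log2 scale, or 1.39 times. *Ctsb* followed with 0.35 (0.33 to 0.37), or 1.28 times. *Ctsz*, *Ctsd* and *Ctsh* (649 and 758 CPM) lay at 0.23, 0.23 and 0.22. *Lgmn* was level, at 0.01 (-0.02 to 0.04), and *Ctsl* was slightly lower in creatine, at 683 and 627 CPM and -0.12 (-0.18 to -0.07). In non-dividing macrophages *Lgmn* and *Ctsl* were at -0.07 and 0.02. Over the alternatives *Lgmn* ranged from -0.09 to 0.06 and *Ctsl* from -0.40 to 0.02. None of these 7 reached the fold of 1.5. The 8 macrophage markers, none at 0, summed to 14090 and 15622 CPM in this gate, a log2 ratio of 0.15. Classical monocyte markers, none at 0, summed to 425 and 344 CPM. The median depth was 16734 and 24506 UMIs per cell. The part of these differences in the ratios of the 8 genes was not tested.

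**Figure D3:**
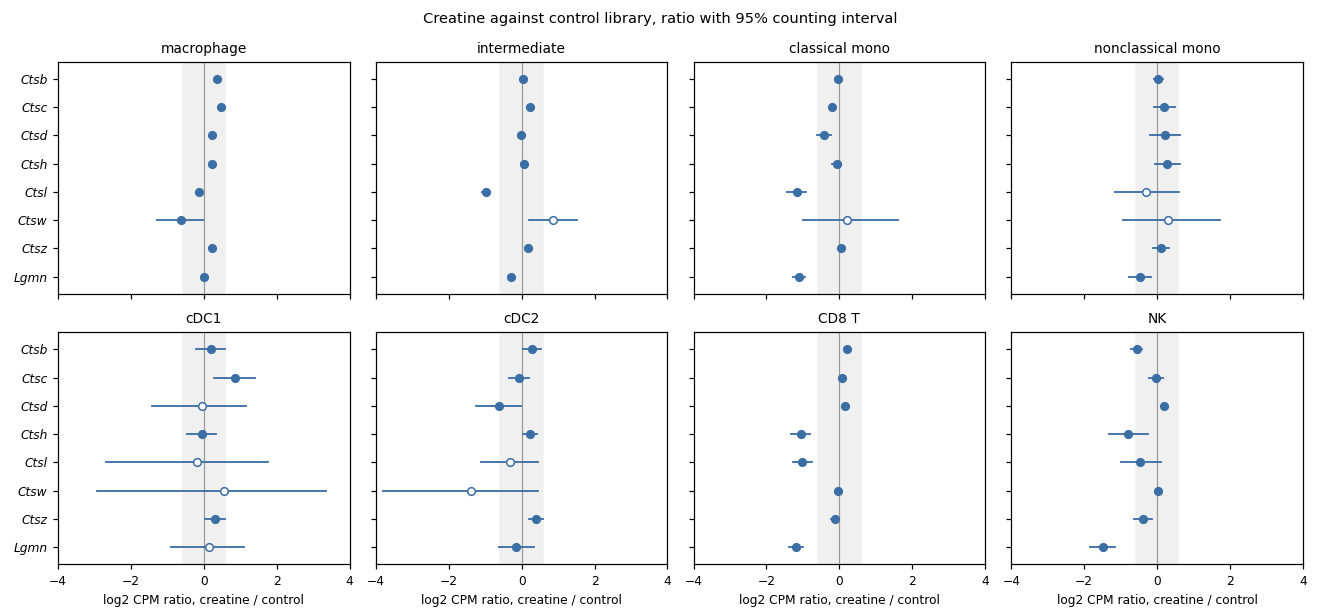
Log2 ratio of CPM, creatine over control, for each gene in 8 gated types, with 95% counting bars, filled points for at least 100 UMIs over both libraries, open points for fewer, and a grey band for ratios under 1.5-fold. *Ctsl* and *Lgmn* lie left of the band in classical monocytes, at -1.17 and -1.10.

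Single macrophages spread widely. The 10th and 90th percentiles of *Ctsb* were 2065 and 8932 CPM with a median of 5389 in control, and 3040.3 and 10357 CPM with a median of 6445 in creatine. For *Ctsl* they were 60.9 and 1296 CPM with a median of 384 in control, and 45.5 and 1232 CPM with a median of 389 in creatine. The cells of the 2 libraries overlapped over most of this range for both genes, and cells of 1 library are not replicates.

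In classical monocytes *Ctsl* and *Lgmn* were past the fold, 2 of the 8 genes and both lower in creatine, where 11.5% of 5509 genes were past the fold, 7.3% higher and 4.25% lower in creatine. *Ctsl* was at 170.04 CPM (149.9 to 192) in control and 75.4 CPM (66.6 to 84.9) in creatine, a log2 ratio of -1.17 (-1.43 to -0.92). *Lgmn* was at 390.4 CPM (359.5 to 423) in control and 182 CPM (168 to 197) in creatine, a log2 ratio of -1.10 (-1.26 to -0.94). The intervals of the 2 libraries did not overlap for either gene. By contrast *Ctsb* was at 932 and 915 CPM, -0.03 (-0.12 to 0.07), and *Ctsz* at 679 and 705 CPM. *Ctsc*, *Ctsh* and *Ctsd* lay at -0.20, -0.07 and -0.41, and *Ctsw* had 8 and 22 UMIs.

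The 8 macrophage markers, none of them at 0, summed to 685 and 538 CPM in classical monocytes, a log2 ratio of -0.35. *Cd74*, the invariant chain that cathepsins digest, was at 5242 and 2112 CPM there, a log2 ratio of -1.31. The part of macrophage RNA, or of how far these monocytes had moved toward macrophages, in the lower *Ctsl* and *Lgmn* was not tested. Of the cells, 100 and 236 held no more than the 5 markers the gate asked for. The gate also leaves out cells with UMIs of many macrophage markers, and such UMIs are found more readily in deeper cells. The median depth of this gate was 7471.5 and 9416 UMIs per cell, and its part was not tested. Over 8 alternatives *Ctsl* ranged from -1.70 to -1.09 and *Lgmn* from -1.37 to -1.10, all past the fold.

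In the intermediate gate *Ctsl* was again past the fold downward and *Ctsw*, with 41 and 43 UMIs, was past it upward, where 9.03% of 7516 genes were past the fold, 5.39% higher and 3.65% lower in creatine. *Ctsl* was at 558 CPM (539.6 to 577) in control and 282 CPM (265 to 300.2) in creatine, a log2 ratio of -0.98 (-1.09 to -0.88). *Lgmn* was at 1452 and 1179 CPM, -0.30 (-0.35 to -0.25). *Ctsb*, *Ctsd* and *Ctsh* lay at 0.03, -0.03 and 0.06. Over the alternatives *Lgmn* ranged from -0.63, past the fold, to -0.30, *Ctsd* from -0.41 to 0.08 and *Ctsb* from -0.20 to 0.04. The median single cell held 1230 and 449 CPM of *Lgmn*, 2025 and 1324 CPM of *Ctsb* and 521 and 291 CPM of *Ctsd*. Classical monocyte markers summed to 3343 and 5215 CPM in this gate, nonclassical monocyte markers to 56.2 and 87.96 CPM and macrophage markers to 7369 and 7024 CPM, with none at 0. NK cell markers summed to 16.2 and 33.2 CPM, none at 0. The part of a different mix of cells in the *Ctsl* and *Ctsw* values was not tested.

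The step from classical monocytes to macrophages differed between the libraries most for *Ctsl* and *Lgmn*. For *Ctsl* the ratio of macrophages to classical monocytes was 4.02 (3.55 to 4.57) in control and 8.33 (7.35 to 9.46) in creatine. For *Lgmn* it was 5.62 (5.18 to 6.11) in control and 12.2 (11.2 to 13.2) in creatine. For *Ctsb* it was 5.81 and 7.56, for *Ctsd* 9.61 and 14.96, for *Ctsc* 1.47 and 2.35, for *Ctsz* 2.02 and 2.27 and for *Ctsh* 1.12 and 1.38. For *Ctsl* and *Lgmn* the macrophage ends were near each other and the monocyte ends apart, whereas for *Ctsb* it was the macrophage ends that were apart. The macrophage ends of *Ctsl* were less near in some alternatives, with a log2 ratio down to -0.40.

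**Figure D4:**
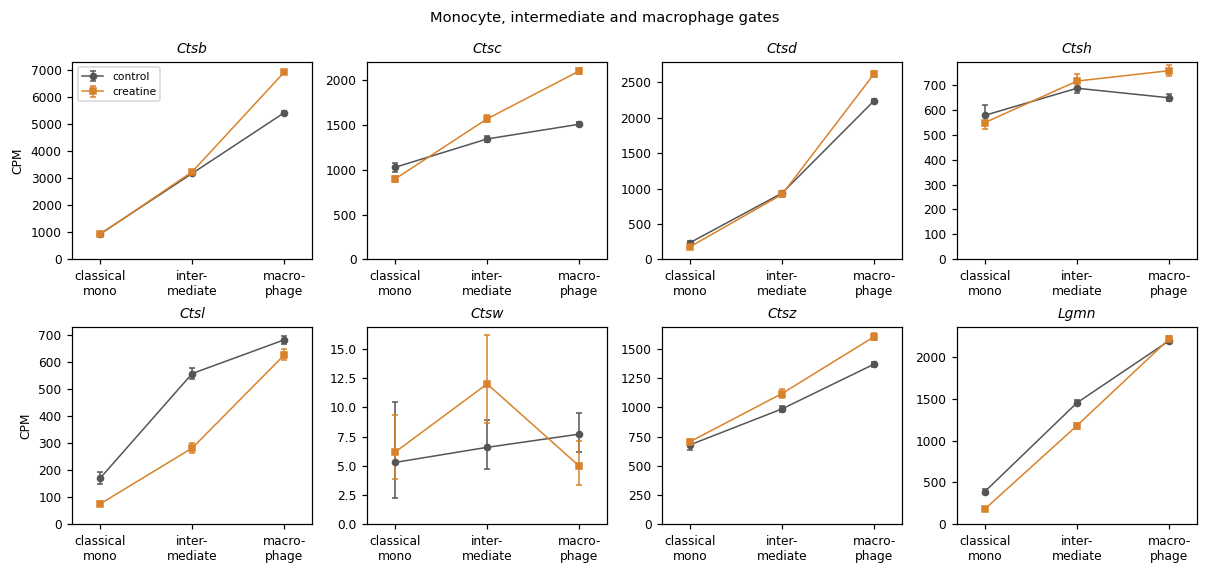
CPM of each gene (linear axes from 0, one scale per gene) in classical monocytes, the intermediate gate and macrophages, with lines joining the gates of 1 library and 95% Poisson bars. The gates are sets of cells harvested together and not times, and for *Ctsl* the creatine values of 75.4 and 282 CPM lie below the control values of 170.04 and 558 CPM and come near them in macrophages.

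None of the 8 genes was past the fold in nonclassical monocytes, where 11.1% of 2809 genes were past the fold, 7.19% higher and 3.95% lower in creatine. *Lgmn* was the farthest from 0, at 341 CPM (285 to 405) in control and 247 CPM (221 to 276) in creatine, a log2 ratio of -0.46 (-0.76 to -0.16). *Ctsl* and *Ctsw* had 61 and 37 UMIs over both libraries. With 1 more own marker required, or with each cell weighted equally, 2 of the 8 were past the fold.

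In cDC1, which cross-present antigen to CD8 T cells, *Ctsc* alone was past the fold, higher in creatine, where 11% of 2019 genes were past the fold, 5.2% higher and 5.84% lower in creatine. It was at 70.6 CPM (55.6 to 88.4) in control and 127 CPM (93.1 to 169) in creatine, from 76 and 47 UMIs, a log2 ratio of 0.84 (0.29 to 1.39) that was 0.03 when 1 marker fewer was required and 2.34 without dividing cells. Macrophage markers (1 and 1 of 8 at 0) summed to 56.7 and 113 CPM in this gate and classical monocyte markers (2 and 2 of 6 at 0) to 1019.97 and 1874 CPM, and their part in the *Ctsc* value was not tested. The higher sum of *Ctsc* was not seen in the median single cell, at 55.4 CPM in control and 29.96 CPM in creatine. Of the cDC1, 40.7% and 44.4% had no *Ctsc* UMI. *Ctsz* was at 335 and 415 CPM and *Ctsh* at 199.7 and 191 CPM in the same cells.

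In cDC2 *Ctsd* and *Ctsw* were past the fold, both lower in creatine, where 13.3% of 2270 genes were past the fold, 7.67% higher and 5.59% lower in creatine. *Ctsd* was at 85.9 and 56.3 CPM from 91 and 31 UMIs and at a log2 ratio of -0.40 without dividing cells. *Ctsw* had 15 and 3 UMIs, and its ratio turned to 0.80 when 1 marker fewer was required. *Ctsz* was at 570.4 CPM (526 to 618) in control and 750.03 CPM (679 to 826) in creatine, with intervals apart, and *Ctsh* at 566 and 661 CPM. Classical monocyte markers (0 and 1 of 6 at 0) summed to 1591 and 3674 CPM in this gate. Macrophage markers summed to 133 and 107 CPM and the 8 proliferation genes to 720 and 187 CPM, none at 0. Of the cells, 42 and 31 held no more than the 2 cDC2 markers asked for. The part of a different mix of cells in these values was not tested.

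Among *Ccr7*+ DCs *Ctsc* and *Ctsd* were past the fold downward and *Ctsl* upward, from 66, 36 and 6 UMIs, where 20.2% of 659 genes were past the fold, 10.5% higher and 9.71% lower in creatine. *Ctsw* had 6 UMIs in control and 0 in creatine, where the upper Poisson limit was 26.5 CPM. *Ctsh* was at 619 CPM (541 to 706) in control and 854 CPM (707 to 1022) in creatine. In pDCs *Ctsw*, with 10 and 4 UMIs, was the 1 gene of the 8 past the fold, where 12% of 665 genes were past the fold, 5.11% higher and 6.92% lower in creatine. *Ctsh* in pDCs was at 1529.6 CPM (1387 to 1683) in control and 1164 CPM (1023 to 1319) in creatine, a log2 ratio of -0.39 (-0.63 to -0.16), while *Ctsl* was at -0.16 and *Ctsb* at 0.29.

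In CD8 T cells *Lgmn*, *Ctsh* and *Ctsl* were past the fold, 3 of the 8 genes and all lower in creatine, where 6.04% of 10582 genes were past the fold, 3.07% higher and 2.97% lower in creatine. *Lgmn* was at 22.7 CPM (21.1 to 24.4) in control and 9.97 CPM (8.89 to 11.1) in creatine, *Ctsh* at 11.99 and 5.74 CPM and *Ctsl* at 11.2 and 5.54 CPM. Their log2 ratios were -1.19, -1.06 and -1.01. The other 5 genes were inside the fold. *Ctsw*, at 272 and 264 CPM, was at -0.04 (-0.08 to 0.01), *Ctsd* at 0.15 (0.12 to 0.18) and *Ctsb*, at 206 and 237 CPM, at 0.20 (0.16 to 0.25).

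In NK cells *Lgmn* and *Ctsh* were past the fold, 2 of the 8 genes and both lower in creatine, where 4.64% of 7570 genes were past the fold, 2.42% higher and 2.22% lower in creatine. *Lgmn* was at 51.6 CPM (43.9 to 60.4) in control and 18.4 CPM (15.4 to 21.8) in creatine, a log2 ratio of -1.49 (-1.83 to -1.15), and *Ctsh* at 17.3 and 9.97 CPM. *Ctsb*, at 189.9 and 129 CPM and -0.56 (-0.71 to -0.41), lay just inside the fold. *Ctsw* was at 0.04 (-0.04 to 0.12) and *Ctsd* at 0.20 (0.11 to 0.29).

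*C1qa*, *C1qb* and *C1qc*, which are macrophage markers, were lower in the same gates. Their UMIs numbered 2220 and 1003 in CD8 T cells and 510 and 480 in NK cells, where *C1qa* was at 53.9 and 21.2 CPM. For every 100 of them there were 33.6 and 31.01 *Lgmn* UMIs in CD8 T cells, against 18.9 and 17.2 in macrophages. The CD8 T cell ratio was thus 1.77 and 1.80 times the macrophage ratio, and the NK cell ratio 1.64 and 1.61 times. The C1q genes are among the markers that the macrophage gate counts and that the CD8 T and NK cell gates limit. A ratio to C1q above that of macrophages can therefore be set in part by the gates, for every gene compared here. That part was not tested. In NK cells there were 30.98 and 27.7 *Lgmn* UMIs for every 100 C1q UMIs.

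For *Ctsh* the CD8 T cell ratio was 3.17 and 3.03 times that of macrophages and for *Ctsl* 2.81 and 3.53 times. The NK cell ratio was 1.86 and 2.54 times that of macrophages for *Ctsh* and 1.53 and 3.37 times for *Ctsl*. *Ctsd* was far above the macrophage ratio, at 34.3 and 75.8 times in CD8 T cells and 13.9 and 37.8 times in NK cells. *Ctsc* was at 9.50 and 16.8 times in CD8 T cells. The 8 macrophage markers, none at 0, summed to 84.5 and 41.4 CPM in CD8 T cells and 203 and 82.8 CPM in NK cells. The part of free macrophage RNA in the lower *Lgmn*, *Ctsh* and *Ctsl* was not tested further.

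**Figure D5:**
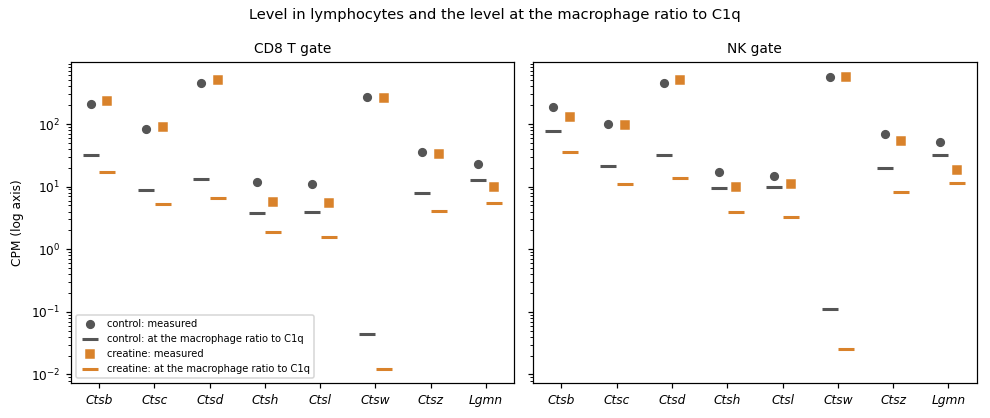
Measured CPM (log axis) of the 8 genes in CD8 T cells and NK cells, as grey circles for control and orange squares for creatine, with dashes at the CPM each gene would have at its macrophage ratio to the C1q UMIs in those cells. In control CD8 T cells *Lgmn* is at 22.7 CPM with its dash at 12.8 CPM, and *Ctsd* is at 448 CPM with its dash at 13.1 CPM.

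Tregs had *Ctsw* past the fold upward and *Lgmn* downward, where 7.99% of 5593 genes were past the fold, 5.2% higher and 2.79% lower in creatine. *Ctsw* was at 46.96 CPM (39.4 to 55.5) in control and 80.4 CPM (67.7 to 94.8) in creatine, a log2 ratio of 0.78 (0.43 to 1.12), from 137 and 142 UMIs. With each cell weighted equally the ratio was 0.14. The 5 NK cell markers, none at 0, summed to 22.3 and 79.8 CPM in the Treg gate, and the macrophage markers to 96.3 and 62.8 CPM. The part of NK cell and macrophage RNA in these values was not tested. *Lgmn* was at 36.3 and 21.5 CPM. In CD4 T cells *Ctsh*, *Ctsz* and *Lgmn* were past the fold downward, from 67, 199 and 57 UMIs, where 7.72% of 3057 genes were past the fold, 4.87% higher and 2.85% lower in creatine. The log2 ratio of *Ctsz* in CD4 T cells ranged from -0.75 to -0.24 over 8 alternatives. Macrophage markers (0 and 0 of 8 at 0) summed to 156 and 83.3 CPM in the CD4 T cell gate and cDC2 markers (0 and 1 of 4 at 0) to 94.4 and 12.1 CPM, and their part was not tested.

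The smaller gates held few UMIs of these genes. γδ T cells had *Ctsl*, *Ctsz* and *Lgmn* past the fold downward, from 12, 54 and 18 UMIs, where 16.4% of 1118 genes were past the fold, 12.2% higher and 4.2% lower in creatine. B cells had *Ctsc* and *Ctsz* past it upward and *Lgmn* downward, from 70, 56 and 26 UMIs, where 12.9% of 217 genes were past the fold, 11.1% higher and 1.84% lower in creatine. In neutrophils *Ctsd* was past it upward, at 507 CPM (385 to 656) in control and 1018 CPM (795 to 1284) in creatine, and *Ctsl* and *Lgmn* downward, from 10 and 2 and from 13 and 0 UMIs (upper Poisson limit 52.9 CPM), where 34.4% of 276 genes were past the fold, 12.3% higher and 22.1% lower in creatine. In the melanoma gate *Ctsh* and *Ctsl* were past it upward and *Ctsw* and *Lgmn* downward, each from fewer than 100 UMIs, where 28.3% of 1866 genes were past the fold, 12.5% higher and 15.8% lower in creatine. Macrophage markers summed to 146 and 52.5 CPM in γδ T cells (1 and 2 of 8 at 0), to 437 and 139.7 CPM in B cells (2 and 2 of 8 at 0) and to 271 and 158 CPM in neutrophils (1 and 4 of 8 at 0). Their part in the lower *Lgmn* of these gates was not tested.

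Other lysosomal genes, together with inhibitors and substrates of the proteases, were read from 8 lists with 92 genes in the count tables. In macrophages 83 of them had at least 100 UMIs, 3 were past the fold upward and 4 downward, 8.43% beside the 5.42% of all genes. The 3 upward include 1 inhibitor, and the 4 downward include 3 substrates, so the 8.43% is not a share of lysosomal genes alone. Of the 32 other hydrolases 2 were past the fold upward and 1 downward. Among the other cathepsins, cofactors and lipid carriers, membrane proteins, proton pump subunits and sorting and transcription genes 0 were past it. A median log2 ratio of 0.09 was found without the up to 3 genes per list with the largest absolute log2 ratio. It also leaves out *Ctss*, *Cst3*, *Cst7* and *Cd74*. Ratios were above 0 for 22 of 32 other hydrolases, 8 of 9 membrane proteins and 10 of 16 proton pump subunits. They were above 0 for 3 of 5 inhibitors, 2 of 4 cofactors and lipid carriers and 6 of 8 sorting and transcription genes. The share of all macrophage genes above 0 was not counted, so these counts have no background. Of the 5 substrates of these proteases 0 were above 0, with a median of -0.85, and the 3 past the fold were *Gzma*, *Gzmb* and *Prf1*. These 3 are the cytotoxic lymphocyte genes named above, and the part of lymphocyte RNA in them was not tested. The substrate median was 0.66 in intermediates, 1.03 in nonclassical monocytes and -0.53 in classical monocytes, over 5, 3 and 2 genes.

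All 4 other cathepsins with enough UMIs lay above 0, a count without a background, with a median of 0.15, and none was past the fold. *Ctss*, which trims the invariant chain in antigen-presenting cells, was at 3293 CPM (3260.1 to 3327) in control and 4292 CPM (4239.6 to 4344) in creatine macrophages, a log2 ratio of 0.38. *Ctsk* was at 14.7 and 17.4 CPM and *Ctso* at 29.4 and 30.5 CPM. *Psap*, the precursor of the saposins, was at 6729 and 7595 CPM, *Npc2*, a cholesterol carrier, at 1217 and 1316 CPM and *Gm2a*, an activator of ganglioside breakdown, at 366 and 347 CPM. Among membrane and pump genes, *Cd63* was at 917 and 1092 CPM, *Laptm4a* at 277 and 333 CPM, *Ctns* at 17.02 and 13.1 CPM, *Atp6v0d2* at 121 and 146 CPM, *Atp6v1c1* at 116 and 136 CPM and *Atp6v0c* at 12.7 and 10.4 CPM. Of the sorting genes, *Sort1* was at 23.6 and 17.2 CPM and *Gnptg* at 24.03 and 28.03 CPM.

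Protease inhibitors differed in both directions in macrophages. *Serpina3g*, a serpin known to inhibit cysteine cathepsins, was at 224 CPM (215 to 233) in control and 562 CPM (543 to 581) in creatine macrophages, or 2.51 times. It was the only 1 of 5 inhibitor genes with enough UMIs past the fold. *Cst3*, which encodes the secreted inhibitor cystatin C, was at 1717 and 1440.1 CPM, a log2 ratio of -0.25 (-0.29 to -0.22). *Serpinb9* was at 19.7 and 26.5 CPM. *Serpina3g* was also past the fold upward in intermediates, at 154 and 345 CPM, and in nonclassical monocytes, at 18.4 and 63.7 CPM. It was within the fold in CD8 T cells, at 332 and 254 CPM, in NK cells, at 333 and 341 CPM, and in classical monocytes, at 124 and 139.8 CPM. *Cst7*, an inhibitor of cathepsin C in cytotoxic cells, was at 213 and 218 CPM in CD8 T cells and 6.65 and 5.31 CPM in macrophages.

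*Cd74* was at 5229 and 5177 CPM in macrophages, with overlapping intervals. The other genes past the fold there were *Rnaset2a* and *Rnaset2b* upward and *Arsb*, *Gzma*, *Gzmb* and *Prf1* downward. *Rnaset2a* (17.8 and 42.6 CPM) and *Rnaset2b* (13.6 and 38.1 CPM) are near-identical copies, so their values are uncertain. *Arsb*, a sulfatase, was at 10.9 and 6.47 CPM from 123 and 39 UMIs.

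The genes with the most similar pattern were named by Pearson's r of log2(CPM + 1) over the 9 types with at least 50 cells in each library, ranked on the control library alone. These types share their library, so r is a description. *Lgmn* was most like *Blvrb*, *Pla2g15* and *Grn*, with r of 0.995, 0.992 and 0.991 in control and 0.981, 0.969 and 0.991 in creatine. *Ctsb* was most like *Vps35*, *Lacc1* and *Acp2*, with r of 0.991, 0.988 and 0.987 and 0.943, 0.937 and 0.984. The nearest genes of *Ctsw* were *Taf15*, *Gm14029* and *Lax1* (0.993, 0.991 and 0.989 in control and 0.960, 0.970 and 0.936 in creatine). Those of *Ctsl* were *Nxpe5*, *Ccl2* and *Trappc2l* (0.989, 0.988 and 0.987 in control and 0.954, 0.946 and 0.927 in creatine). Those of *Ctsc* were *Vwa5a*, *Cd93* and *Rhou* (0.991, 0.990 and 0.990 in control and 0.972, 0.894 and 0.957 in creatine). Those of *Ctsz* were *Slc43a2*, *Trim25* and *Lmo2* (0.988, 0.988 and 0.988 in control and 0.942, 0.939 and 0.981 in creatine). Those of *Ctsh* were *Eps8*, *B3gnt8* and *Slc15a3* (0.993, 0.992 and 0.990 in control and 0.909, 0.912 and 0.971 in creatine). *Ctsd* had the lowest r with its nearest genes in control, with *Dnmt3aos*, *Htt* and *Fblim1* at 0.960, 0.950 and 0.949 in control and 0.727, 0.877 and 0.846 in creatine.

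Among themselves, *Ctsb*, *Ctsc*, *Ctsh*, *Ctsl*, *Ctsz* and *Lgmn* had r from 0.850 to 0.972 in control and from 0.874 to 0.983 in creatine. *Ctsd* had r of 0.331 to 0.653 with these 6 in control and 0.263 to 0.613 in creatine. *Ctsw* had r of -0.975 to -0.833 and of -0.966 to -0.874 with them. Over the types compared, the pattern was thus shared by 6 genes, turned around for *Ctsw* and partly shared by *Ctsd*. Those types leave out pDCs, every other DC gate, B cells, neutrophils and the melanoma gate. In pDCs the 6 genes parted. The ratio of pDCs to macrophages was 2.52 and 2.46 for *Ctsl* and 2.36 and 1.54 for *Ctsh*. It was 0.589 and 0.493 for *Ctsz*, 0.239 and 0.228 for *Ctsb*, 0.0798 and 0.0675 for *Ctsc* and 0.0483 and 0.0449 for *Lgmn*.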

How the data were processed

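The authors aligned 1 control and 1 creatine library to mm10 with Cell Ranger 3.0.2 and deposited raw UMI counts per gene and cell. Cells with over 25% mt- UMIs, under 300 UMIs or under 100 genes were removed (408 and 274 cells). Types were gated on how many of their marker genes had a UMI, for example 6 of 8 for macrophages and 5 of 6 for classical monocytes. Cells that met several gates (36 and 27) or none (2049 and 1495) were left out. UMIs were summed per gate and given as CPM with exact Poisson intervals, and ratios carry exact conditional binomial intervals. In macrophages 1 UMI is 0.0887 and 0.166 CPM and in pDCs 3.65 and 4.73 CPM. Scrublet (scanpy 1.11.5) called 2 and 8 doublets, which is too few to have worked, so none were removed and an alternative drops the top 6% of scores. TMM factors came from edgeR 4.0.16 (R 4.3.3), and other steps used Python 3.11.15, numpy 2.4.6, scipy 1.17.1 and pandas 2.3.3. Intervals were tried on simulated Poisson counts, which had no spread between cells or libraries, so the trial covers counting error only. Gene models are those of GENCODE M21. The genes, lists and markers were chosen with earlier results of these data known. Named genes are the 8 proteases, up to 3 genes per list with the largest log2 ratio in macrophages, *Ctss*, *Cst3*, *Cst7*, *Cd74* and the 3 nearest genes by pattern.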

Additional observations from a re-analysis of the deposited data

Results flagged for a closer look

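*Ctsw* and *Ctsd* were each past the fold in opposite directions in different types, with at least 100 UMIs over both libraries in each type. *Ctsw* had a log2 ratio of -0.63 in macrophages and 0.78 in Tregs, from 117 and 279 UMIs. *Ctsw* was highest in NK cells, whose 5 markers summed to 18.5 and 8.29 CPM in the macrophage gate and 22.3 and 79.8 CPM in the Treg gate, and their part was not tested. *Ctsd* had a log2 ratio of -0.61 in cDC2 and 1.00 in neutrophils, from 122 and 129 UMIs. With 1 library per group these differences between types were not tested. Over 8 alternatives *Ctsw* ranged from -0.83 to -0.03 in macrophages and from 0.14 to 0.82 in Tregs, and *Ctsd* from -1.12 to -0.40 in cDC2.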

How the results depend on the processing

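No paired analysis was possible because each group has 1 library, and for the same reason no replicate was left out. The count of proteases past the fold in macrophages fell from 1 to 0 with TMM factors, with each cell weighted equally, without the 6% highest Scrublet scores and without dividing cells. In nonclassical monocytes it rose from 0 to 2 with equal weights and with 1 more own marker, and to 1 without the highest Scrublet scores and without dividing cells. In cDC1 it rose from 1 to 3 with equal weights and with 1 own marker fewer, and to 2 with 1 more own marker and without dividing cells. In cDC2 it fell from 2 to 1 with equal weights and when only genes with at least 100 UMIs were counted, and to 0 without dividing cells. The other listed genes past the fold in macrophages, inhibitors and substrates included, fell from 7 to 3 with 1 more own marker. They fell to 4 without the highest Scrublet scores. With 1 own marker fewer, *Ctsw* in cDC2 reversed from -1.38 to 0.80 and *Ctsc* in *Ccr7*+ DCs from -0.79 to 0.73. The cause of these changes was not tested. The counts in classical monocytes (2 or 3), CD8 T cells (3) and NK cells (2 or 3) stayed within 1.5 times under all 9 alternatives. The type with the highest level stood for 8 of 8 genes under the 7 alternatives run, and the thinned shares held for 7 genes at 1000 UMIs. In control 1 UMI was worth 16.8 CPM in B cells and 8.74 CPM in neutrophils, where 0 and 1 of the 8 genes reached 100 UMIs over both libraries.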
